A study of Mus musculus with 6 samples.

Results

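The TRPM genes encode melastatin-type transient receptor potential channels, a family of cation channels, and 6 of them were followed here in pancreatic islet RNA: Trpm2, Trpm3, Trpm4, Trpm5, Trpm6 and Trpm7. They were taken from the deposited expression table of 54532 genes by gene name, and each name had 1 row. The set was chosen by the difference in FPKM between the genotypes, which was known when the 6 genes were put together, so their values are a description and carry no test.

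The libraries were poly-A RNA from islets of 7-week-old mice, 3 of genotype Wtap flox/flox, in which Wtap carries recombination sites and is intact, and 3 labelled Wtap-βKO, a Wtap deletion aimed at insulin-producing β cells. The WTAP protein helps the RNA methyltransferase complex place N6-methyladenosine (m6A), and its role in β cells is the subject of the series. Each library pooled the islets of 3 mice, the replicates were biologically independent per the labels, and the labels do not name the driver of the deletion. Levels are FPKM, fragments per kilobase of gene scaled to depth, and the whole reads behind them could be recovered from the table, 16353297 to 18682745 per library. Wtap itself was at 10.5, 11.4 and 11.6 FPKM in the Wtap flox/flox libraries and at 11.2, 11.9 and 12.3 in those labelled Wtap-βKO. The 2 ranges overlapped, with means of 11.2 FPKM for Wtap flox/flox and 11.8 FPKM for the other group. Which part of the gene was removed is not stated in the labels, so the level over the whole gene could not check the deletion. Every direction below is therefore that of the libraries labelled Wtap-βKO. The islet label fitted the hormone genes: the 12 β-cell markers summed to 135670 to 155950 FPKM in the controls and to 82165 to 92714 in the libraries labelled Wtap-βKO. Replicate 2 labelled Wtap-βKO stood apart from replicates 1 and 3 of its group, as the chi-square over genes divided by its degrees of freedom was 16.4 and 15.6 against 5.06 between the other two.

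TRPM channels are tetramers that let cations into the cell. TRPM5 and TRPM4 are opened by cytosolic calcium and pass sodium and potassium but hardly any calcium, so in a β cell they can carry a depolarizing current once calcium has risen. TRPM2 is gated by ADP-ribose and calcium, TRPM3 by the steroid pregnenolone sulfate and by heat, and TRPM6 and TRPM7 are magnesium-permeable channels fused to a protein kinase.

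Promoter sequence is shown for Trpm5 and Trpm2, the members with the largest differences between the groups, and for Trpm7, the member with the highest level in the libraries labelled Wtap-βKO. Each run covers 250 bases before to 50 bases after the gene's start in RefSeq on GRCm38.p6, 5′ to 3′ on the gene's strand, with CpG dinucleotides in capitals. They lie at chr7:143094593-143094892, chr10:77969823-77970122 and chr2:126876212-126876511, all on the minus strand. The RefSeq start of Trpm5 is that of the deposited table, whereas that of Trpm2, at base 77969872, lies inside the gene as the table bounds it, and that of Trpm7, at base 126876261, lies just outside.
Trpm5 promoter: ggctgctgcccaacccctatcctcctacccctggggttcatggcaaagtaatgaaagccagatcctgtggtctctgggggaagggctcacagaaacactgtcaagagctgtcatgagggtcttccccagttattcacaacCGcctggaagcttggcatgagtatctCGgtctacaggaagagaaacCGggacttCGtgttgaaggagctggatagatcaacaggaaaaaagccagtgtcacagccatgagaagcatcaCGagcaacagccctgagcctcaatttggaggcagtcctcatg
Trpm2 promoter: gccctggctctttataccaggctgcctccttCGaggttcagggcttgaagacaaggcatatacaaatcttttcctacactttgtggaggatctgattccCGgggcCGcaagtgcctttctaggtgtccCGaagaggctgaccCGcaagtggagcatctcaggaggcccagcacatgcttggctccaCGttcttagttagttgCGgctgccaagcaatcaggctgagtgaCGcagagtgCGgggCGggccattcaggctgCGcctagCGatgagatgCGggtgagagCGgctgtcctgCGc
Trpm7 promoter: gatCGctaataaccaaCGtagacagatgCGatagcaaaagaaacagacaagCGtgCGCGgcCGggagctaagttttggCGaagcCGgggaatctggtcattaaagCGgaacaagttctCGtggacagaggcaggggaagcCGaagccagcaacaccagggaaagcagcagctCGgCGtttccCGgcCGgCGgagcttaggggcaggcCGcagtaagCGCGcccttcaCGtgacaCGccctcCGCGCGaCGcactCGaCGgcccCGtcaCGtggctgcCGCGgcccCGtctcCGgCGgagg

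The 3 promoters differed in CpG content. The Trpm5 window held 5 CpG, at the 41st percentile of 32851 mouse promoter windows of the same length, whose median was 7. The Trpm2 window held 15, at the 66th percentile, and the Trpm7 window held 35, at the 93rd. Of the other members in the table, Trpm6 had 9 CpG and the 2 listed starts of Trpm3 had 21 and 10. Short motifs were searched on both strands. The E-box CANNTG is in 72.3% of all promoter windows, the GC box GGGCGG in 35.7%, the MAF core TGCTGA in 19.5%, the TATA box TATAAA in 13.6%, the GATA box AGATAA in 11.2%, the homeobox core TAATTA in 5.29% and the forkhead motif TGTTTAC in 3.65%. The Trpm5 window held none of these 7 strings. The Trpm2 window held 3 E-boxes, 1 TATA box and 1 GC box, and the Trpm7 window held 3 E-boxes and none of the other 6. These are matches of letters, and no binding was measured.

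Trpm5 (ENSMUSG00000009246, chr7:143069153-143094642 on GRCm38) was the most abundant TRPM transcript of control islets and among the scarce ones in the libraries labelled Wtap-βKO. It stood at 24.9, 29.3 and 26.8 FPKM in the 3 controls, from 2790, 2966 and 3049 reads. In the libraries labelled Wtap-βKO it stood at 0.663, 1.85 and 0.725 FPKM, from 80, 212 and 80 reads. The lowest control was far above the highest library labelled Wtap-βKO, and within that group replicate 2 was 2.67 times the mean of replicates 1 and 3. The means were 27.0 ± 2.24 and 1.08 ± 0.669 FPKM (SD, n = 3 each), a level 25-fold lower. Without replicate 2 labelled Wtap-βKO the ratio was 38.9, and leaving out any other library gave 21.0 to 26. On the log2(FPKM + 1) scale the difference was -3.79, the lowest value among the 15927 genes with a mean of at least 0.5 FPKM, a scale on which abundant genes can reach lower values than scarce ones. Ranked by the ratio of group means instead, Trpm5 was 34th of the 13491 genes with a control mean of at least 1 FPKM. In control islets its level was above that of 90.67% of the genes tested. In bulk islets, fewer cells of a type and less RNA per cell cannot be told apart. Of its 6398 exonic bases, 220 are shared with Tssc4 on the other strand, and the libraries do not mark strand.

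**Figure D1:**
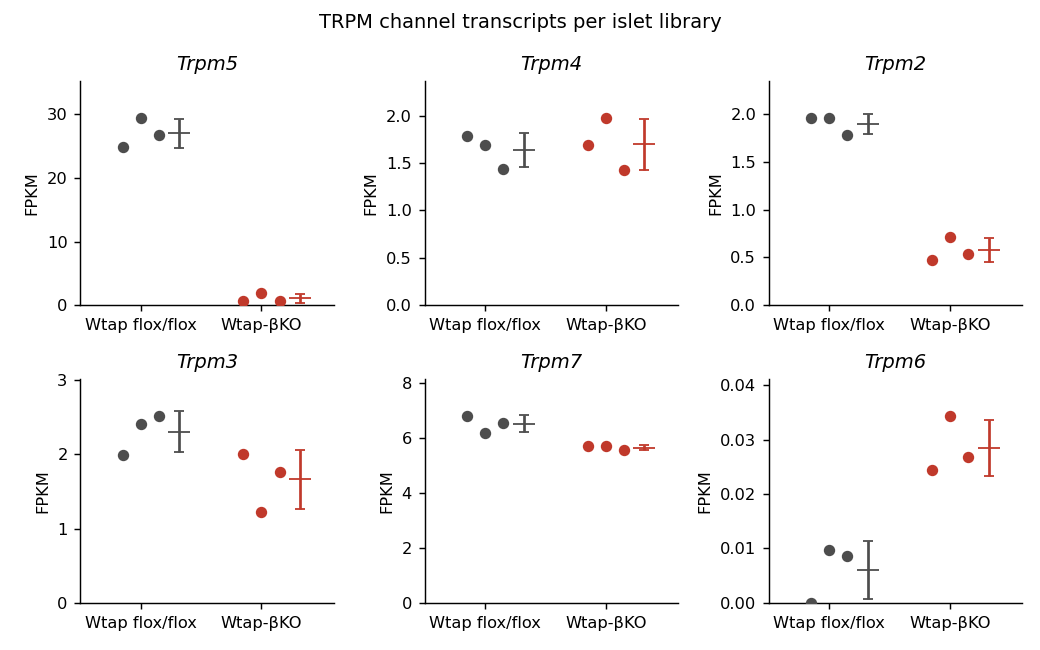
FPKM of the 6 TRPM genes in each library, with the mean and SD beside the points of each genotype (3 libraries each, drawn in replicate order from left to right, separate y axes that start at 0). Trpm5, Trpm2 and Trpm7 were lower in every library labelled Wtap-βKO than in any control, Trpm3 and Trpm4 overlapped, and Trpm6 rested on 0 to 4 reads a library.

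Trpm4 (ENSMUSG00000038260, chr7:45302632-45333780), the calcium-activated channel closest to TRPM5 in function, had about the same level in both groups. It was at 1.78, 1.69 and 1.43 FPKM in the controls and at 1.69, 1.97 and 1.43 in the libraries labelled Wtap-βKO, from 267 to 382 reads a library. The groups overlapped, with only replicate 2 labelled Wtap-βKO above every control, and had means of 1.63 ± 0.181 and 1.70 ± 0.271 FPKM. The log2 difference was 0.03 and was -0.005 after quantile normalization, so its sign depends on the scaling. The ratio of the calcium-activated pair differed between the groups. Trpm5 was 14.0, 17.4 and 18.7 times Trpm4 in the controls and 0.394, 0.939 and 0.507 times Trpm4 in the libraries labelled Wtap-βKO. The summed level of the pair was set by Trpm5 in the controls and mostly by Trpm4 in the other group, where Trpm4 exceeded Trpm5 in all 3 libraries.

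Trpm2 (ENSMUSG00000009292, chr10:77907722-77970563), the ADP-ribose-gated calcium channel, was the second member with clearly separate groups. It was at 1.96, 1.96 and 1.78 FPKM in the controls, from 427, 385 and 394 reads. It was at 0.468, 0.713 and 0.540 FPKM in the libraries labelled Wtap-βKO, from 110, 159 and 116 reads. All 3 of those lay below every control, and replicate 2 was again the highest of its group, at 1.41 times the mean of replicates 1 and 3. The means were 1.90 ± 0.103 and 0.574 ± 0.126 FPKM, 3.31-fold lower, and leaving out any library gave 3.03 to 3.76. By log2 difference (-0.88) Trpm2 was 283rd from the lowest of 15927 genes.

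Trpm3 (ENSMUSG00000052387, chr19:22139119-22989884), the steroid-activated channel, was lower on average but its groups overlapped. It was at 2.0, 2.41 and 2.52 FPKM in the controls and at 2.0, 1.23 and 1.77 in the libraries labelled Wtap-βKO. Here replicate 2 labelled Wtap-βKO was the lowest library, at 0.651 times the mean of replicates 1 and 3, where for Trpm5 and Trpm2 it was the highest of its group. The means were 2.31 ± 0.275 and 1.67 ± 0.397 FPKM, a log2 difference of -0.32, and the groups came apart only after quantile normalization among the scalings tried. The deposited table gives Trpm3 a length of 8061 bases, whereas GENCODE M21 counts 24437 exonic bases, so its level relative to other members depends on the annotation. In GENCODE it shares 277 and 351 exonic bases with the opposite-strand genes Gm27151 and C330002G04Rik. The microRNA gene Mir204 inside it was at 0 in all 6 libraries, in a poly-A preparation that keeps few short RNAs.

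Trpm7 (ENSMUSG00000027365, chr2:126791565-126876230), the broadly expressed channel kinase, was slightly lower. It was at 6.79, 6.18 and 6.55 FPKM in the controls and at 5.70, 5.71 and 5.55 in the libraries labelled Wtap-βKO, from 1082 to 1347 reads a library. The groups did not overlap, with means of 6.51 ± 0.308 and 5.65 ± 0.0914 FPKM, 1.15-fold lower and a log2 difference of -0.17. Scaled to total recovered reads, the groups overlapped and the difference was -0.08. Trpm6 (ENSMUSG00000024727, chr19:18749983-18892510), the kinase channel of magnesium-transporting epithelia, was at the edge of detection. It had 0, 1 and 1 reads in the controls and 3, 4 and 3 in the libraries labelled Wtap-βKO, or 2 against 10 in all. After depth scaling the ratio of these summed reads was 4.73, a description that rests on very few reads. The 2 TRPM genes left out of the set, Trpm1 and Trpm8, had 1 against 2 and 1 against 1 reads.

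Of the 6 members, 5 passed the filter of a mean of at least 0.5 FPKM and Trpm6 did not. In 3 members every library labelled Wtap-βKO lay below every control, a state that 22.1% of the genes tested shared. In 1 member, Trpm6, every such library lay above, a state of 19.1% of the genes tested, and after quantile normalization Trpm6 overlapped. Trpm6 was not among the genes tested, so that share is not the one for genes with so few reads. The remaining 2, Trpm3 and Trpm4, overlapped.

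**Figure D2:**
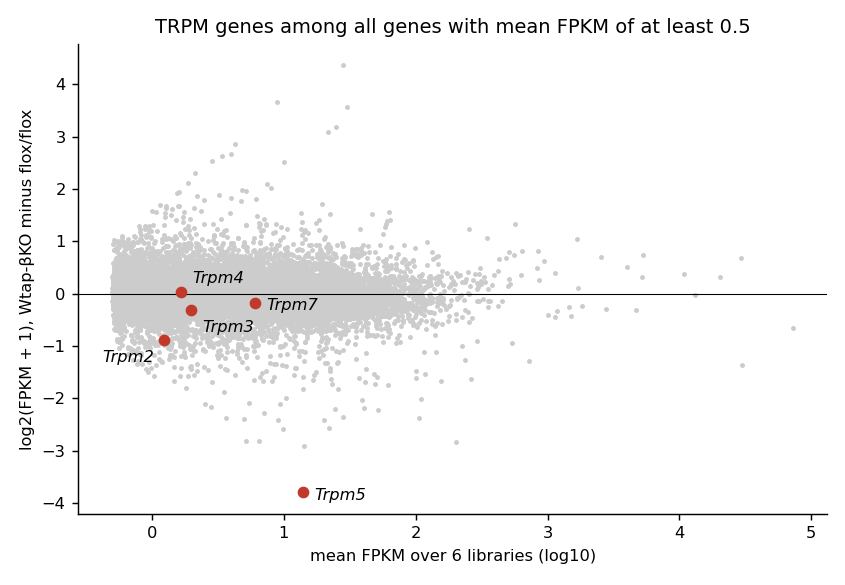
Difference between the group means of log2(FPKM + 1), Wtap-βKO minus flox/flox, against the mean FPKM over 6 libraries on a log10 scale, for the 15927 genes tested (grey) and the 5 TRPM genes among them (red). Trpm5 lies lowest, at -3.79, Trpm2 at -0.88, and Trpm3, Trpm7 and Trpm4 lie at -0.32, -0.17 and 0.03.

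Added up, TRPM transcripts were 37.4, 41.6 and 39.1 FPKM in the controls and 10.5, 11.5 and 10.04 in the libraries labelled Wtap-βKO. The means were 39.4 ± 2.11 and 10.7 ± 0.744, a sum 3.68-fold lower. Without Trpm5 the sums were 12.4 ± 0.151 and 9.61 ± 0.285 FPKM, 1.29-fold lower. Trpm5 made up 68.5% ± 2.02 of the control sum and 6.29%, 16.1% and 7.22% of the sum in replicates 1, 2 and 3 labelled Wtap-βKO. Trpm7 made up 16.6% ± 1.65 of the control sum and 53.0% ± 2.97 of the other, although its own level was no higher there. By level per length, all 3 controls had the order Trpm5, Trpm7, Trpm3, Trpm2, Trpm4 and Trpm6. The ranges of Trpm5 and Trpm7 lay apart from each other and from the rest, while Trpm3 at 2.0 to 2.52 lay just above Trpm2 at 1.78 to 1.96, and the Trpm2 range met that of Trpm4 at 1.43 to 1.78. Replicates 1 and 3 labelled Wtap-βKO had the order Trpm7, Trpm3, Trpm4, Trpm5, Trpm2 and Trpm6. In replicate 2 Trpm3 dropped behind Trpm4 and Trpm5. In that group Trpm7 stood apart, and the ranges of Trpm3 and Trpm4, of Trpm3 and Trpm5, of Trpm4 and Trpm5, and of Trpm5 and Trpm2 overlapped.

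**Figure D3:**
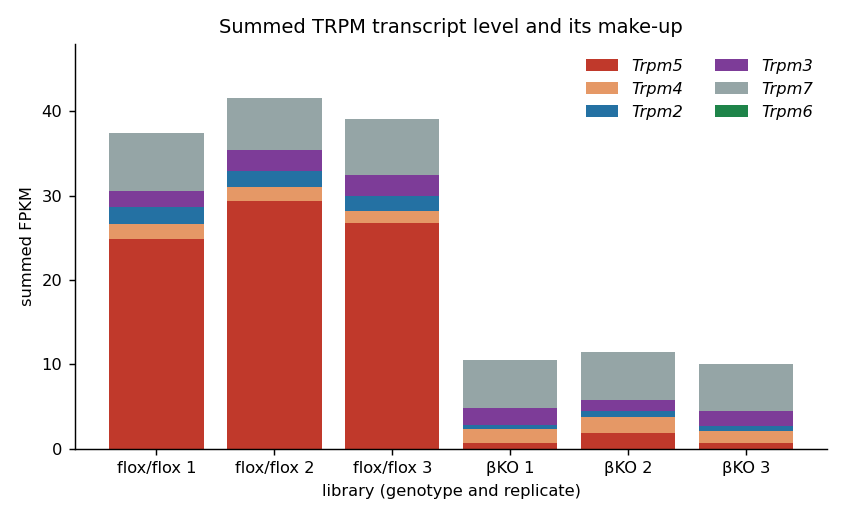
Summed FPKM of the 6 TRPM genes in each library, stacked by gene (y axis from 0, x axis the library's genotype and replicate). The control bars reach 37.4 to 41.6 FPKM and are mostly Trpm5, and in the Wtap-βKO bars, which reach 10.04 to 11.5 FPKM, Trpm7 is the largest piece, at 49.6% to 55.2%.

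The TRPM genes were next set beside β-cell markers as percent of the control mean, since β-cell transcripts as a group were lower. Of the 12 β-cell markers, 10 fell by limma's moderated test on log2(FPKM + 1) (Benjamini-Hochberg adjusted over all 15927 genes, threshold 0.05) and none rose, against 11.3% of genes tested that fell and 8.77% that rose, 20.1% in all. Mafa, a β-cell transcription factor, was at 13.8% of its control level, and Slc2a2, the glucose transporter GLUT2, at 18.7%. Ins1 was at 38.8%, Nkx6-1 at 45.8%, Pdx1 at 53.2%, Ins2 at 63.6% and the islet amyloid gene Iapp at 98.4%. Trpm5, at 2.46%, 6.85% and 2.68% in the 3 libraries labelled Wtap-βKO, was below all 12 markers in each of them. Trpm2, at 24.7%, 37.6% and 28.5%, lay between Slc2a2 and Ins1 by its mean of 30.2%. Trpm3 at 72.2% and Trpm7 at 86.8% lay above Ucn3 at 71.1%, and Trpm4 at 104% lay above all 12. Replicate 2 labelled Wtap-βKO was not shifted 1 way across β-cell genes: it was 0.669 times the mean of replicates 1 and 3 for Pdx1, 0.688 for Glp1r, 0.968 for Mafa and 1.13 for Ins1.

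**Figure D4:**
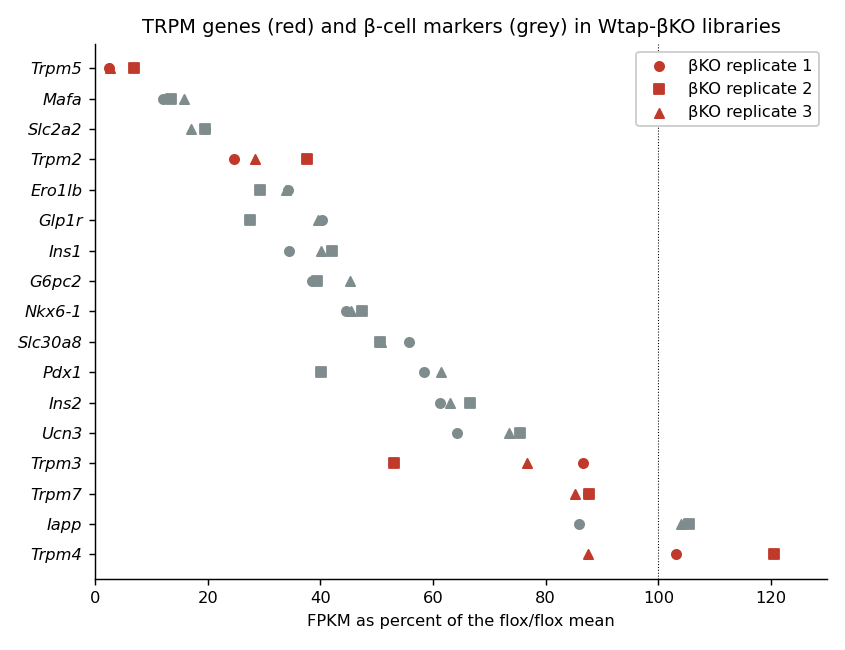
FPKM in the 3 Wtap-βKO libraries as percent of the flox/flox mean, for 5 TRPM genes (red) and the 12 β-cell markers (grey), ordered by mean, with 1 symbol per replicate and a dotted line at 100%. Trpm5 lies left of every marker, at 2.46% to 6.85%, and Trpm4 lies around the line, at 87.5% to 121%.

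By profile, the genes most like Trpm5 were sought among 11438 protein-coding genes with a control mean of at least 1 FPKM, as the smallest root mean square distance in log2 from each gene's own control mean over the 6 libraries. The nearest was Cyp4f39, a cytochrome P450 gene, at a distance of 0.733, at 9.71 ± 0.784 FPKM in the controls against 0.523 ± 0.0806 in the other group. Mafa followed at 0.745, then Gad1, which makes the transmitter GABA, at 0.858, Slc2a2 at 1.03 and Fam151a at 1.03. Replicate 2 was the highest library labelled Wtap-βKO for Gad1, at 1.34, 3.71 and 1.56 FPKM in replicates 1 to 3, and for Fam151a, at 7.25, 10.1 and 8.32 FPKM. Replicate 3 was the highest for Cyp4f39, at 0.431, 0.559 and 0.580 FPKM, and for Mafa, at 42.9, 47.9 and 56.1 FPKM. Slc2a2 was at 34.9, 34.9 and 30.6 FPKM. Fam151a shares 1263 of its 1923 exonic bases with Acot11 on the other strand. These genes were chosen for their likeness, so the distances are a description. The size of the fall enters the distance, and the 2 nearest genes had log2 fold changes of -2.81 (Cyp4f39) and -2.84 (Mafa).

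Trpm5 also marks tuft cells, chemosensory cells that ducts can hold, and markers of other cell types were read beside it. Of 11 other tuft-cell markers, 5 were tested and none was called, with 3 at an unadjusted p below 0.05 and 1 higher by limma voom on the recovered reads. Their summed level was 7.23 to 8.05 FPKM in the controls and 8.51 to 9.17 in the libraries labelled Wtap-βKO, and Gfi1b and Sh2d6 were at 0 in all 6. For Trpm2, which macrophages also express, 1 of 10 macrophage markers tested rose (Lyz2, 4.5 ± 0.572 to 8.26 ± 0.327 FPKM, log2 fold change 0.75, adjusted p = 0.00269) and none fell, with sums of 107 to 120 and 127 to 140 FPKM. Of 7 lymphocyte markers, 1 was tested, the B-cell receptor gene Cd79a, which fell from 8.06 ± 0.302 to 2.49 ± 1.08 FPKM (log2 fold change -1.42, adjusted p = 0.00428). Replicate 2 was the highest of its group there too, at 3.72 FPKM against 2.04 and 1.71. Markers of α cells rose in 6 of 10, those of δ and PP cells in 3 of 6 and those of stromal cells in 5 of 9 tested, with none falling. The δ- and PP-cell sum was 34652 FPKM in replicate 2 labelled Wtap-βKO and 18470 and 19519 in replicates 1 and 3. The hormone gene Ppy was a large part of it, at 19590 FPKM in replicate 2 against 9428 and 8761. The α-cell sum was lowest of the group in replicate 2, at 33912 FPKM against 38166 and 44773. Among acinar, ductal and endothelial markers 1 of 9, 1 of 9 and 2 of 10 tested rose, and among glial and neuronal markers 1 of 7 fell, the tyrosine hydroxylase gene Th. The part of these cell types in the TRPM values was not tested.

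Lists of genes that work beside the TRPM channels were then read in the same test. Each share below is of the genes tested in the list, to be set beside 11.3% that fell and 8.77% that rose over all genes tested. Of 22 other TRP channel genes, 7 were tested, 3 fell (42.9%) and none rose, with a median log2 fold change of -0.05 against -0.01 over all genes tested. Scaled to total recovered reads the same counts held, with medians of 0.05 and 0.08. Mcoln3, an endolysosomal channel named after its values were seen, fell from 1.88, 1.53 and 1.54 to 0.245, 0.419 and 0.201 FPKM (log2 fold change -1.04, SE 0.13, adjusted p = 0.00267). Trpc1, a canonical TRP channel, fell from 5.87 ± 0.180 to 4.35 ± 0.337 FPKM (adjusted p = 0.0154), and this call was lost without control replicate 1 (adjusted p = 0.0513) or 3 (0.0584). Pkd2l2, of the polycystin branch, fell from 5.24 ± 0.0103 to 3.72 ± 0.346 FPKM (adjusted p = 0.0129) and shares 631 exonic bases with Fam13b on the other strand. The lysosomal channel gene Mcoln1 and the polycystin gene Pkd2 were not called, at 5.89 against 5.65 and 10.3 against 9.98 FPKM. Trpc2 and Trpv5 were at 0 in every library. With a filter of a mean of at least 5 FPKM, 1 of this list was called.

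TRPM5 and TRPM4 open when receptors that act through phospholipase C release calcium from the endoplasmic reticulum. Of 25 genes of that route, 19 were tested, 4 fell (21.1%) and 1 rose (5.26%), with a median of -0.10. This balance depends on the scaling: 2 fell and 3 rose when scaled to total recovered reads, and 3 fell and 3 rose after quantile normalization. Ffar1, the fatty-acid receptor GPR40, was at 55.2, 58.0 and 55.3 FPKM in the controls and at 17.8, 17.3 and 18.1 in the libraries labelled Wtap-βKO (log2 fold change -1.61, SE 0.05, adjusted p = 4.34e-05). Chrm3, the muscarinic acetylcholine receptor M3, was at 8.97, 8.53 and 8.81 against 4.12, 3.77 and 3.90 FPKM (log2 fold change -0.99, adjusted p = 0.000329). Both receptors had tight groups that lay far apart, and in neither was replicate 2 high. Itpr1, an IP3 receptor that releases the calcium, rose from 13.4 ± 0.801 to 19.8 ± 1.10 FPKM (log2 fold change 0.53, adjusted p = 0.00337). Plcb4, a phospholipase C, fell from 5.74 ± 0.274 to 4.40 ± 0.0806 FPKM (adjusted p = 0.0157), a call lost without control replicate 1 (0.0627) or replicate 3 labelled Wtap-βKO (0.0531) and when scaled to total reads (0.0635). Gnb1, a G-protein subunit named after its values were seen, was at the edge of the threshold (adjusted p = 0.0486) and was lost in 13 of 18 alternatives, among them the removal of any library, at 0.0508 to 0.151. Without control replicate 1, or without replicate 3 labelled Wtap-βKO, 3 of the list were called. The taste-cell partners of TRPM5, Gnat3, Gng13 and Plcb2, were too low to be tested.

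Of 26 other channel genes of the β-cell membrane potential, all were tested, 7 fell (26.9%) and 4 rose (15.4%), with a median of -0.08. Scaled to total recovered reads, 4 fell and 4 rose, with a median of 0.03. Among calcium channels, the subunit gene Cacna2d1 fell from 17.98 ± 0.230 to 11.9 ± 0.367 FPKM (log2 fold change -0.56, adjusted p = 0.00109). The pore genes Cacna1d (20.4 ± 0.618 to 14.8 ± 0.710, adjusted p = 0.00377) and Cacna1c (7.16 ± 0.572 to 4.65 ± 0.346, adjusted p = 0.00633) fell as well, and Cacna1d shares 589 exonic bases with Chdh. The sodium channel gene Scn3a rose from 3.92, 3.76 and 4.09 to 10.8, 7.85 and 10.1 FPKM (log2 fold change 1.10, adjusted p = 0.00155). Kcnj11, the pore of the KATP channel that TRPM currents act beside, was named after its values were seen. It fell from 57.8 ± 1.45 to 48.1 ± 1.52 FPKM (log2 fold change -0.26, adjusted p = 0.015), a call lost when scaled to total reads (0.0703) and without control replicate 2 (0.06), control replicate 3 (0.0599) or replicate 3 labelled Wtap-βKO (0.0582). Without control replicate 3, 6 of the list were called. Trpm5 had the lowest log2 difference of all genes tested, so none of these falls could be larger than its own.

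For TRPM2, whose ligand ADP-ribose comes from NAD, 21 genes of ADP-ribose and NAD metabolism were listed. Of these 19 were tested, 2 fell (10.5%) and 1 rose (5.26%), with a median of -0.01, the same as over all genes. After quantile normalization, after rescaling without the 50 highest genes and when scaled to total reads, 1 fell and 2 rose, so the balance depends on the scaling. Nampt, the rate-limiting enzyme of NAD salvage, fell from 11.4, 10.05 and 11.1 to 7.29, 8.11 and 7.22 FPKM (log2 fold change -0.47, adjusted p = 0.00665). Parp1, which makes poly-ADP-ribose, fell from 17.8 ± 1.52 to 14.3 ± 0.483 FPKM (adjusted p = 0.0313), and Nudt9, an ADP-ribose hydrolase, rose from 5.96 ± 0.442 to 7.51 ± 0.452 FPKM (adjusted p = 0.0367). These 2 calls were lost in 10 and 7 of 18 alternatives. Nampt alone was called without control replicate 1, without control replicate 3 and without any 1 of the libraries labelled Wtap-βKO, where the adjusted p was 0.0613 to 0.0981 for Parp1 and 0.0683 to 0.117 for Nudt9. Nudt9 shares 854 exonic bases with Gm43545. Adprh, which removes ADP-ribose from arginine, was at 18 ± 1.03 and 21.2 ± 1.12 FPKM (adjusted p = 0.0545). Cd38, which makes ADP-ribose and cyclic ADP-ribose from NAD, was at 2.38 ± 0.620 and 2.63 ± 0.185 FPKM and was not called.

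Beside TRPM6 and TRPM7, 25 genes of magnesium transport and its control were listed. Among them 21 were tested, 5 fell (23.8%) and 2 rose (9.52%), with a median of 0.02. This balance also depends on the scaling: 3 fell and 4 rose when scaled to total reads, 3 and 3 without the 50 highest genes. Slc41a3, of the SLC41 magnesium transporter family, rose from 3.00, 3.35 and 2.70 to 7.09, 7.31 and 6.24 FPKM (log2 fold change 0.97, adjusted p = 0.0011). Magt1 fell from 60.8, 62.3 and 61.9 to 44.6, 40.6 and 44.0 FPKM (log2 fold change -0.51, adjusted p = 0.00182). Egfr, the receptor of the magnesium-retaining hormone EGF, fell from 1.73 ± 0.101 to 0.813 ± 0.200 FPKM (adjusted p = 0.0147), a call lost without control replicate 2 (0.0564) or 3 (0.0507). Nipal3 fell from 29.5 ± 0.698 to 24.9 ± 0.833 FPKM (adjusted p = 0.0203) and was lost in 8 of 18 alternatives, among them the removal of control replicate 1 (0.0605), 2 (0.0768) or 3 (0.0647) or of replicate 3 labelled Wtap-βKO (0.0728). Without any 1 of the controls, or without replicate 3 labelled Wtap-βKO, 4 of the list were called. The kidney claudin genes Cldn16 and Cldn19 were at 0 in all libraries.

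**Figure D5:**
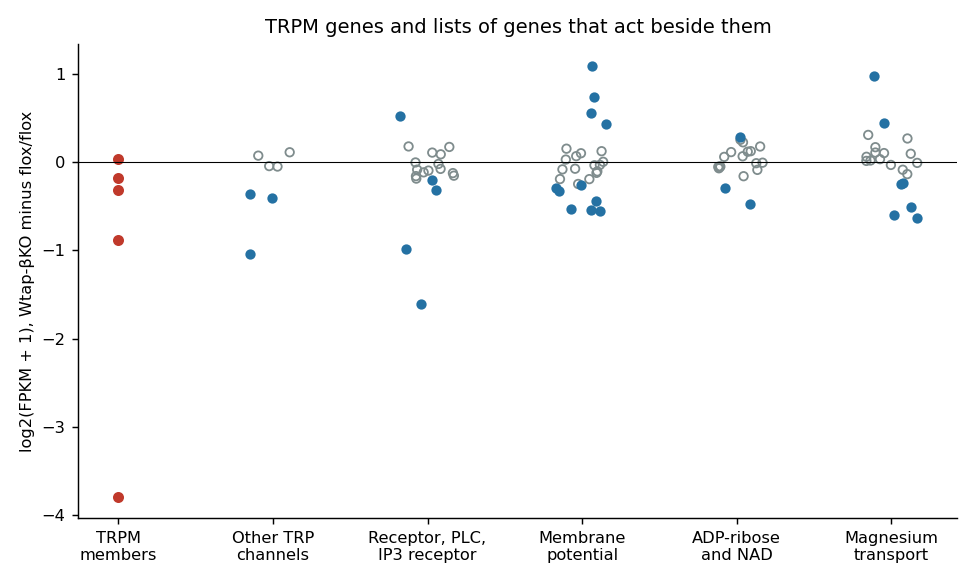
Difference in log2(FPKM + 1), Wtap-βKO minus flox/flox, for the 5 TRPM genes above the filter (red, no test) and for the tested genes of 5 lists, filled in blue where limma's adjusted p was below 0.05 and open where it was not. The lists hold 3, 5, 11, 3 and 7 called genes from left to right. Trpm5 lies below every listed gene because it was the lowest of all genes tested.

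Genes beside the TRPM loci were examined because position was not used to pick the members. Within 100 kb of a member GENCODE M21 places 65 genes, of which 62 were in the table, 22 were tested, 3 fell and 1 rose, with a median of -0.12. These are 13.6% and 4.55% of the neighbours tested, against 11.3% and 8.77% over all genes tested. When scaled to total reads 1 fell and 1 rose, and after quantile normalization 2 fell and 2 rose. Cd81, a tetraspanin gene that ends 1.219 kb from Trpm5, rose from 33.5, 32.2 and 31.5 to 49.4, 53.9 and 53.7 FPKM (log2 fold change 0.68, adjusted p = 0.000797), the opposite direction to Trpm5. Tssc4, which overlaps the end of Trpm5 on the other strand, fell from 66.1 ± 4.09 to 54.0 ± 2.79 FPKM (log2 fold change -0.29, adjusted p = 0.0255). That call was lost without control replicate 1 (0.0581), 2 (0.0622) or 3 (0.0791), without replicate 1 labelled Wtap-βKO (0.0716) and when scaled to total reads (0.0703). Kcnq1, a potassium channel gene on the far side of Trpm5, was at 0.723 ± 0.0556 and 0.763 ± 0.157 FPKM, and R74862 was not called (adjusted p = 0.225). Near Trpm7, the deubiquitinase gene Usp8 fell from 24.9 ± 0.472 to 20.0 ± 1.63 FPKM (adjusted p = 0.0245), lost in 6 of 18 alternatives, among them the removal of control replicate 1 (0.0824), 2 (0.0795) or 3 (0.0641), and Sppl2a was not called. Near Trpm4, the antisense gene Mtag2, named after its values were seen, fell from 1.40 ± 0.366 to 0.440 ± 0.284 FPKM (adjusted p = 0.0361), lost in 7 of 17 alternatives, among them the removal of control replicate 1 (0.108) or 3 (0.115) or of replicate 2 (0.0638) or 3 (0.0855) labelled Wtap-βKO. Around Trpm2, the genes Lrrc3, 1810043G02Rik and Pfkl were measured and not called. The same held for Rpl14-ps1, Ppfia3, Lin7b, Snrnp70, Gm22478 and Ruvbl2 near Trpm4. It also held for Nmrk1, Carnmt1 and D030056L22Rik near Trpm6. Among these, Rpl14-ps1 was called after quantile normalization (0.0442) and Gm22478 without replicate 3 labelled Wtap-βKO (0.0343). Cd81 was the only neighbour called without control replicate 1, and 2 neighbours were called without control replicate 2 or 3.

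The transcripts were also read for GGACT, a common form of the sequence in which the m6A complex methylates the adenosine. m6A was not measured in these libraries, so the letters say where the string lies and nothing of its methylation. The longest coding transcript of Trpm5 in GENCODE M21 has 25 exons and 4123 bases, encodes 1158 residues and holds 4 such strings on its sense strand. They are shown with 8 bases on either side and the string in capitals, the first pair 1212 and 222 bases before the end of the coding sequence and the others 248 and 420 bases after it.
Trpm5 coding, 1212 before its end: ctgctggtGGACTtcaggcca
Trpm5 coding, 222 before its end: cacagagtGGACTtgattgcc
Trpm5 3′ untranslated, 248 after coding: actggcttGGACTggacagct
Trpm5 3′ untranslated, 420 after coding: agagggcaGGACTcagatcta

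Per kilobase Trpm5 held 0.970 such strings, at the 45th percentile of 12686 coding genes tested, whose median was 1.05. Trpm4 held 10, or 2.36 per kilobase, at the 93rd percentile, and Trpm2 held 14, or 1.92 per kilobase, at the 86th. Trpm3 held 5 and Trpm6 held 6, at 0.940 and 0.922 per kilobase. Trpm7 held 3, or 0.422 per kilobase, at the 15th percentile.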

How the data were processed

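The 6 libraries were 3 Wtap flox/flox and 3 labelled Wtap-βKO islet samples. The authors deposited a table of FPKM values with a gene length per gene, per the file headers. The submitters' processing notes name, without role or order, DESeq2 1.20.0, featureCounts 1.5.0-p3, HISAT2 2.0.5 and CASAVA with the builds GRCm38 and mm10. FPKM multiplied by gene length gave whole multiples of 1 read, within 0.01 read, for 100% of values, and these reads were used for read numbers, voom and a scaling. The sum of reads was 0.936 to 1.05 times the library size that the worth of 1 read implies, and a scaling between samples is thus part of the deposited values.

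Values were analysed as log2(FPKM + 1), which understates the change of low genes. Genes with a mean of at least 0.5 FPKM (15927) were fitted with limma 3.58.1 in R 4.3.3 (lmFit and trended eBayes). Tests were two-sided, p-values were adjusted by Benjamini-Hochberg over all of them, and the threshold was 0.05. SE is limma's moderated standard error. Fold changes are Wtap-βKO over or minus control, and n is 3 per group. Of the gene identifiers, 54495 were in GENCODE M21, 53548 with the same coordinates, and 4 of the 6 members were among these. Trpm3 and Trpm6 had other limits there, and coordinates in the text are those of the deposited table. Promoters come from RefSeq on GRCm38.p6, and 5 of the 6 members matched.

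The members, lists and rules were chosen with earlier results of these data known. The rule named the members, Trpm1, Trpm8 and Wtap, the 4 genes of lowest adjusted p in each pathway list among those with a mean of at least 1 FPKM, neighbours within 100 kb with a mean of at least 1 FPKM, and the 5 genes nearest to Trpm5. Further genes were named outside this rule, among them Kcnq1, Cd38, marker genes and genes too low to be tested. Alternatives were 4 rescalings, pseudocounts of 0.1 and 0.5, no filter and a mean of at least 5 FPKM, no or a robust variance trend, limma voom on recovered reads, a replicate block, and leaving out each library. Fits were tested on simulated data. Python 3.11.15 with pandas 2.3.3, SciPy 1.17.1 and matplotlib 3.10.9 read the table and drew the figures.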

Additional observations from a re-analysis of the deposited data

How the results depend on the processing

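Trpm5 and Trpm2 kept separate groups and their direction under every scaling and pseudocount tried, with log2 differences of -4.66 and -4.20 for Trpm5 and -1.58 and -1.16 for Trpm2 at pseudocounts of 0.1 and 0.5. Trpm7 moved to -0.08 when scaled to total recovered reads, which also moved the median of all genes from -0.01 to 0.08. That scaling changed the share of calls that were higher from 43.7% to 68.1%, and rescaling without the 50 highest genes changed it to 53.8%. Of all genes tested, 3195 were called, 2340 with no filter, 4098 with limma voom and 1809 to 3233 with 1 library left out, the upper value without replicate 2 labelled Wtap-βKO. With 1 library left out, 2 to 3 other TRP channels were called, 3 to 4 genes of the receptor route, 6 to 10 membrane potential channels, 1 to 3 genes of ADP-ribose and NAD metabolism, 4 to 8 of magnesium transport and 1 to 4 neighbours. With a mean of at least 5 FPKM, 1 other TRP channel was called, with no filter 1 gene of ADP-ribose and NAD metabolism, and with total reads 2 neighbours, and the cause was not tested. Same-numbered libraries correlated at 0.0293, 0.0377 and 0.0185 in their deviations from the group means, each below 0.1, although every sample correlated best with its own number. With the replicate block 2638 genes were called. Depth limits Trpm6, at 0 to 4 reads a library. The design has 3 pooled samples a group, and no protein, current or m6A was measured here.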
